A study of Oryza sativa Japonica Group with 20 samples.

Results

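The JASMONATE ZIM-DOMAIN (JAZ) genes of rice encode the repressors of the jasmonate pathway. The 10 JAZ loci described here, JAZ3, JAZ4 and JAZ6 to JAZ13, were taken by their MSU locus identifiers from the mRNA tables of a study of arsenite stress, and all 10 were among the 57624 loci of those tables. Seedlings of the japonica cultivar Nipponbare, 14 days old and grown in nutrient solution, were left untreated and harvested at 0 h or were placed in 20 or 80 µM sodium arsenite and harvested after 6 h or 24 h. Roots and shoots were sequenced separately, which gives 10 groups with 1 mRNA library each and no replicates. The sources used here do not say how many plants went into a library. Untreated plants were taken only at the start of the light period, the same hour as the 24 h harvest, so no untreated sample matches the 6 h harvest.

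JAZ proteins bind transcription factors such as MYC2 and hold jasmonate target genes silent. They carry a TIFY motif, through which they pair and recruit co-repressors, and a Jas motif, through which they bind MYC2 and the receptor COI1. When the jasmonate conjugate JA-Ile accumulates, COI1 binds the JAZ protein and marks it for destruction, which frees the transcription factor. Most JAZ genes are themselves targets of those factors, so JAZ transcript is widely used as an early readout of jasmonate signalling, and it is also raised by wounding. A JAZ transcript level does not give the level of JAZ protein. The names follow the numbering in which JAZ3 and JAZ4 are TIFY6a and TIFY6b, JAZ6 to JAZ8 are TIFY10a to TIFY10c, and JAZ9, JAZ10, JAZ11, JAZ12 and JAZ13 are TIFY11a to TIFY11e. Another numbering of the same rice genes is in use, and the RefSeq gene table lists it among the synonyms.

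Levels are given as RPKM, reads scaled to locus length and library size, and differences as log2 differences of RPKM + 1. The tables summed to 313836 to 369084 RPKM per library, and loci at 5 RPKM or more numbered 8016 to 12515, fewest in roots at 80 µM 6 h. Over loci of low value in both libraries, the most common ratio of a library's value to that in untreated roots was 0.785 to 1.37. With values rounded to 1 decimal, this is at best a rough guide to relative depth and gives no read total. The 5 shoot marker genes of photosynthesis summed to 2112.5 to 4547.0 RPKM in shoots and to 12.7 to 257.5 RPKM in roots, highest in the untreated root library, and none was listed at 0 in any library. The 4 root markers summed to 378.1 RPKM in untreated roots, 90.4 and 33.7 RPKM in roots at 20 µM, 4.2 and 8.9 RPKM in roots at 80 µM, and 2.3 to 9.0 RPKM in shoots, where 2 of them were listed at 0 in all 5 libraries. The 80 µM root libraries were therefore as low as the shoots in these 4 genes, which include Lsi1, Lsi2 and IRT1, though not shoot-like in photosynthesis genes. Whether the fall was particular to these genes or shared by root transcripts at large was not tested.

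The 2 shoot libraries at 20 µM went against their time labels. A log2 readout of harvest hour, taken as LHY, a gene that peaks at dawn, less the average of GI, PRR1, PRR95 and PRR37, which peak later in the day, was 3.48 in untreated shoots, 0.30 at 80 µM 6 h and 6.41 at 80 µM 24 h. It was 3.37 in the shoot library labelled 20 µM 6 h and 0.42 in the one labelled 20 µM 24 h, and the codes in their file headers are each other's. In roots the readout was 2.21 untreated, −0.80 and 1.77 at 20 µM after 6 h and 24 h, and −1.13 and −0.87 at 80 µM. The root library labelled 80 µM 24 h was therefore also unlike the untreated one taken at the same hour, though its header code matches its label, and at 80 µM in roots the readout did not follow harvest hour. Labels were kept. Shoot values at 20 µM are printed by label, and the counts and tests that compare times, doses or tissues through those 2 libraries are also given with their times exchanged.

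All 10 genes were transcribed in both tissues, and 9 of them reached 5 RPKM in every library. The exception was JAZ9, at 1.7 RPKM in shoots at 80 µM 6 h. JAZ10 had the highest median over the 10 libraries at 155.05 RPKM, followed by JAZ12 at 123.35, JAZ7 at 110.6 and JAZ6 at 101.45 RPKM. JAZ13 had the lowest at 18.55 RPKM, below JAZ3 at 27.1, JAZ9 at 29.2 and JAZ8 at 30.7 RPKM. Neighbours in this order overlapped widely: JAZ10 ranged from 68.7 to 262.4 RPKM and JAZ12 from 54.8 to 277.9 RPKM. In roots alone JAZ11 led with a median of 295.2 RPKM (range 72.1 to 337.3), whereas in shoots it was the sixth by median at 52.7 RPKM (range 35.5 to 87.3).

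**Figure D1:**
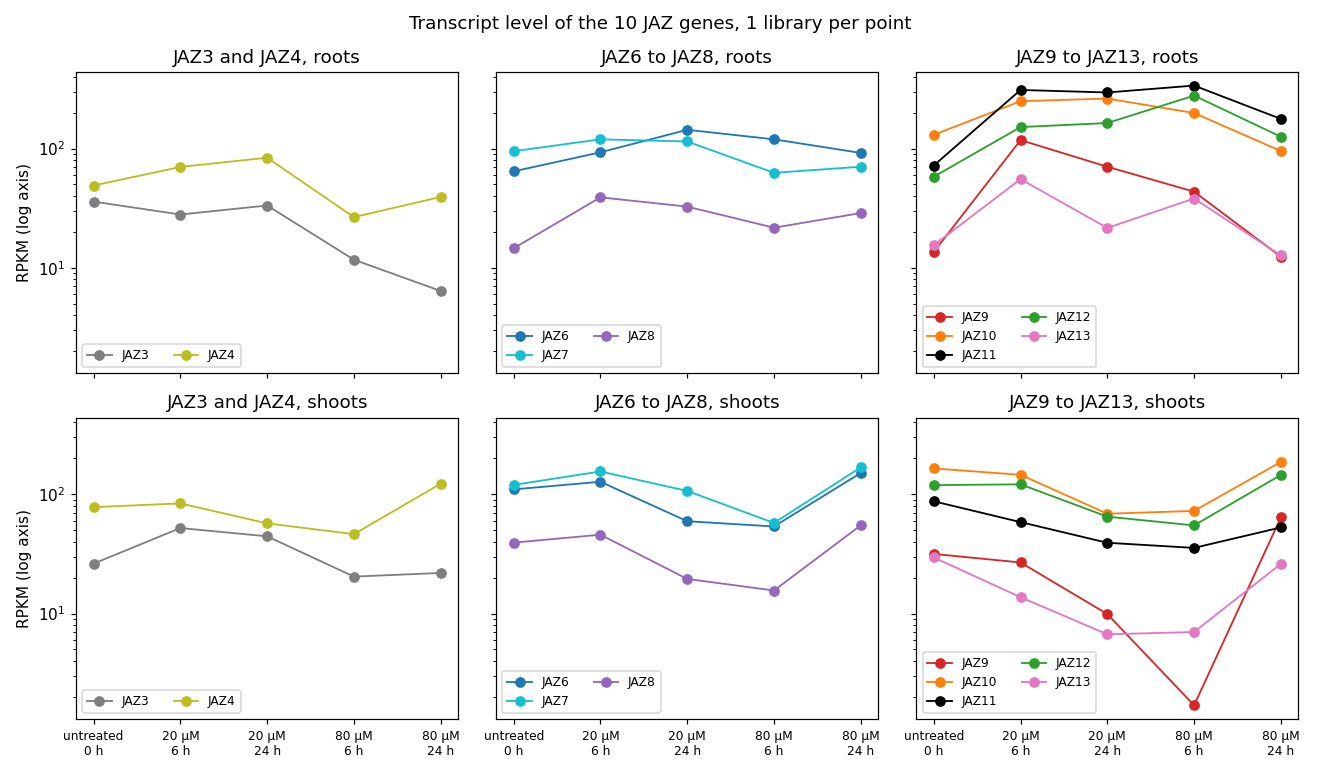
Level of each of the 10 JAZ genes in RPKM (log axis) in the 5 root libraries (top) and the 5 shoot libraries (bottom), by subfamily; each point is 1 library and lines join the libraries of 1 gene. JAZ11 lies at 177.2 to 337.3 RPKM in treated roots and at 35.5 to 58.4 RPKM in treated shoots.

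In roots, summed JAZ transcript stood higher in every arsenite library than in the untreated one. The 10 genes together were at 548.4 RPKM untreated, 1233.3 and 1137.4 RPKM after 6 h under 20 and 80 µM, and 1221.1 and 660.0 RPKM after 24 h in 20 and 80 µM. The excess was thus more than a doubling in 3 of the 4 treated libraries and small at 80 µM 24 h. The excess lay mostly with JAZ9 to JAZ13, whose sum was 289.5 RPKM untreated, 883.7 and 895.3 RPKM after 6 h and 813.2 and 423.2 RPKM after 24 h, in the same order of doses. JAZ6 to JAZ8 summed to 174.0 RPKM untreated and 191.1 to 290.8 RPKM treated, and JAZ3 and JAZ4 to 84.9 RPKM untreated, 98.1 and 117.1 RPKM at 20 µM and 38.3 and 45.7 RPKM at 80 µM.

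JAZ11 (LOC_Os03g08320) and JAZ12 (LOC_Os10g25290) were the members at least 2-fold above the untreated root library in all 4 treated ones. JAZ11, the middle gene of the chromosome 3 cluster, was at 72.1 RPKM untreated, 309.9 and 337.3 RPKM after 6 h under 20 and 80 µM, and 295.2 and 177.2 RPKM after 24 h. Its lowest treated value was 2.46 times the untreated one, and its mean log2 difference was 1.90 ± 0.42 (SD over the 4 treated libraries). JAZ12, on chromosome 10, was at 58.0 RPKM untreated, 151.4 and 277.9 RPKM after 6 h, and 163.6 and 125.6 RPKM after 24 h, a mean log2 difference of 1.55 ± 0.49 (SD over 4). Both were highest at 80 µM 6 h, where together they made up 54.1% of the summed JAZ level against 23.7% in untreated roots. By the same rule 4.66% of 15414 root loci were higher and 6.97% lower, with 2 of 10 JAZ genes higher and 0 lower. The 4 differences share 1 untreated library and have no replicate check.

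JAZ9 (LOC_Os03g08310), which acts with RSS3 and bHLH factors in salt-stressed rice roots, had the largest single difference in roots. It was at 13.6 RPKM untreated, 117.7 and 43.5 RPKM after 6 h under 20 and 80 µM, and 70.4 and 12.4 RPKM after 24 h. It was therefore 8.65 times the untreated level at 20 µM 6 h and back at that level at 80 µM 24 h, and without that last library it also met the 2-fold rule. With the same library left out, 864 of 14968 root loci were higher by this rule. JAZ13 (LOC_Os10g25230), its relative on chromosome 10, was at 15.5 RPKM untreated, 55.4 and 38.1 RPKM after 6 h, and 21.6 and 12.7 RPKM after 24 h, so that it was highest at 6 h at both doses. JAZ10 (LOC_Os03g08330), known for an effect of its overexpression on grain size, was at 130.3 RPKM untreated, 249.3 and 198.5 RPKM after 6 h, and 262.4 and 95.3 RPKM after 24 h. All 3 stood below their untreated level at 80 µM 24 h and above it in the other 3 libraries.

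The TIFY10 genes JAZ6 and JAZ8 stood above untreated roots throughout, and JAZ7 did not. JAZ6 (LOC_Os03g28940) was at 64.4 RPKM in untreated roots, 93.0 and 119.5 RPKM after 6 h under 20 and 80 µM, and 143.6 and 91.9 RPKM after 24 h. JAZ8 (LOC_Os09g26780), a repressor studied for jasmonate-induced resistance to bacterial blight, was at 14.6 RPKM untreated, 39.0 and 21.7 RPKM after 6 h, and 32.6 and 28.8 RPKM after 24 h. Relative to untreated, JAZ6 was higher by a mean log2 difference of 0.76 ± 0.31 and JAZ8 by 0.99 ± 0.34 (SD over 4). JAZ7 (LOC_Os07g42370) was at 95.0 RPKM untreated, 119.5 and 114.6 RPKM at 20 µM after 6 h and 24 h, and 62.6 and 70.4 RPKM at 80 µM, and so lay on both sides of the untreated value. In all, 4 of 10 JAZ genes were above untreated roots in every treated library (JAZ6, JAZ8, JAZ11 and JAZ12; 16.1% of all loci) and 1 was below (JAZ3; 38.1% of all loci).

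JAZ3 (LOC_Os08g33160) and JAZ4 (LOC_Os09g23660), the TIFY6 pair, separated by dose in roots. JAZ3 was at 35.9 RPKM untreated, 28.0 and 33.3 RPKM at 20 µM after 6 h and 24 h, and 11.7 and 6.4 RPKM at 80 µM. JAZ4 was at 49.0 RPKM untreated, 70.1 and 83.8 RPKM at 20 µM, and 26.6 and 39.3 RPKM at 80 µM. Both were thus lowest at 80 µM, and JAZ3 was 5.61 times lower than untreated at 80 µM 24 h.

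Taken library by library against untreated roots, 5 JAZ genes were at least 2-fold higher and 0 lower at 20 µM 6 h, where 13.6% of loci were higher and 16.9% lower. At 20 µM 24 h it was 6 higher and 0 lower (11.4% and 16.6% of loci), at 80 µM 6 h 4 higher and 1 lower (19% and 48.7%), and at 80 µM 24 h 2 higher and 1 lower (17.5% and 35.9%). The single gene lower in both 80 µM libraries was JAZ3. The median log2 difference over the 10 genes was 1.14, 1.06, 0.74 and −0.20 in these libraries, and over all loci −0.22, −0.21, −0.93 and −0.47.

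The test of treatment in roots called no JAZ gene and no other locus. The limma model with treatment, dose and time within each tissue has 2 residual degrees of freedom and takes the lone untreated library to vary like the rest; it called 0 of 18667 loci at an adjusted p of 0.05 in either direction (0% of loci; 921 higher and 1275 lower at an unadjusted p under 0.05, JAZ11 among the former). For JAZ11 the log2 difference was 1.90 with an SE of 0.55 (limma, adjusted p = 0.346), and for JAZ12 it was 1.55 with an SE of 0.77 (limma, adjusted p = 0.482). The median log2 difference over the 10 JAZ genes was 0.78, and over all loci tested −0.43. Shoot and root marker sums, loci detected and the harvest-hour readout moved with treatment in roots, and their part in these differences was not tested. In bulk roots, fewer cells of a type and less RNA per cell cannot be told apart.

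**Figure D2:**
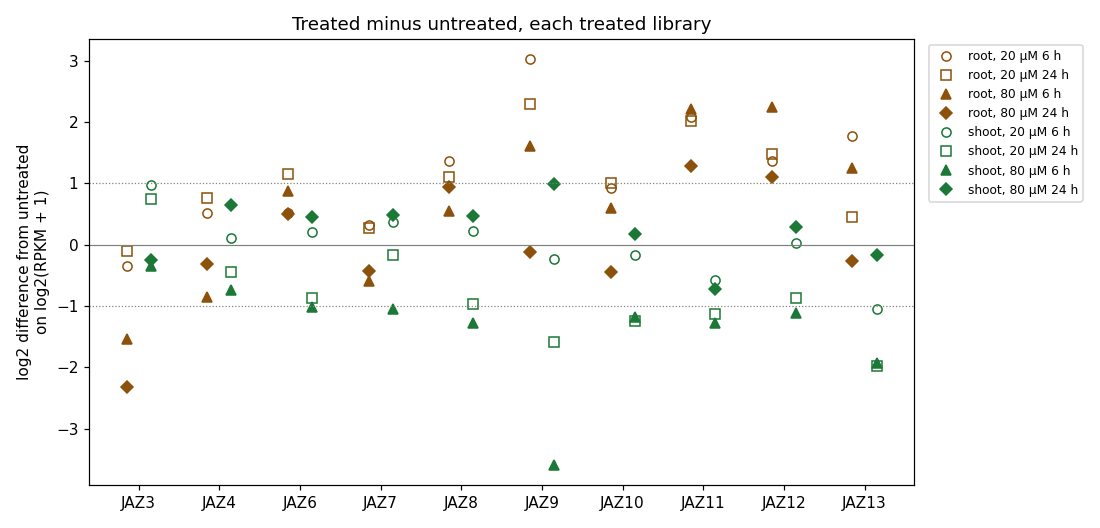
Log2 difference of each treated library from the untreated library of its tissue, on log2(RPKM + 1), for the 10 JAZ genes; brown points are roots, green points shoots, open symbols 20 µM, filled symbols 80 µM, and dotted lines mark 2-fold. JAZ11 is above 0 in all 4 root libraries and below 0 in all 4 shoot libraries.

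In shoots, the 10 genes summed to 805.5 RPKM untreated, 829.6 and 365.0 RPKM in the libraries labelled 6 h at 20 and 80 µM, and 476.3 and 992.2 RPKM in those labelled 24 h. Summed JAZ transcript was thus lowest at 80 µM 6 h and highest at 80 µM 24 h, the opposite of the order of these 2 libraries in roots. None of the 10 was at least 2-fold higher or lower in all 4 treated shoot libraries, and neither were most loci, at 0.5% higher and 1.47% lower of 15408, so the count says nothing particular about the JAZ genes.

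Set against untreated shoots, 0 JAZ genes were at least 2-fold higher in any treated library, where 6.2%, 10.3%, 9.38% and 9.15% of loci were, in the libraries labelled 20 µM 6 h, 20 µM 24 h, 80 µM 6 h and 80 µM 24 h. In the same order 1, 4, 8 and 0 JAZ genes were at least 2-fold lower, beside 9.92%, 12.3%, 12.6% and 30.1% of loci. The 8 lower at 80 µM 6 h are the highest such count, and the 2 genes outside it were JAZ3 and JAZ4.

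JAZ11 and JAZ13 were below the untreated level in all 4 treated shoot libraries, as were 19% of all loci, and 0 JAZ genes were above it in all 4 (6.99% of loci). JAZ11 was at 87.3 RPKM untreated, 58.4 and 35.5 RPKM after 6 h under 20 and 80 µM, and 39.2 and 52.7 RPKM after 24 h, a mean log2 difference of −0.92 ± 0.33 (SD over 4). JAZ13 was at 29.5 RPKM untreated, 13.7 and 7.0 RPKM after 6 h, and 6.7 and 26.1 RPKM after 24 h, and was at least 2-fold lower in all but the 80 µM 24 h library. The remaining 8 genes lay on both sides of the untreated level. JAZ9 spread most, from 31.6 RPKM untreated to 26.8 and 1.7 RPKM after 6 h and 9.9 and 63.9 RPKM after 24 h. It was 18.6 times lower than untreated in one 80 µM library and above untreated in the other. The limma model called 0 of 18667 shoot loci for treatment at an adjusted p of 0.05 (80 higher and 252 lower at an unadjusted p under 0.05, no JAZ gene among them), with a median log2 difference of −0.41 over the JAZ genes and −0.15 over all loci.

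Read beside the harvest-hour readout, 9 of the 10 genes had their lowest shoot levels in the 2 libraries with the lowest readouts, the one labelled 20 µM 24 h and that of 80 µM 6 h. The share of all loci lowest in the same 2 libraries was not counted, so how unusual this is remains unknown. JAZ10 was at 164.6 RPKM untreated, 145.5 RPKM in the library labelled 20 µM 6 h and 186.4 RPKM at 80 µM 24 h, but at 68.7 RPKM in the library labelled 20 µM 24 h and 72.5 RPKM at 80 µM 6 h. JAZ12 was at 119.3, 121.1 and 145.2 RPKM in the same 3 libraries and at 64.9 and 54.8 RPKM in the other two. JAZ6 was at 109.9, 127.2 and 150.6 RPKM against 59.4 and 53.7 RPKM, and JAZ8 at 39.3, 45.8 and 54.9 RPKM against 19.5 and 15.6 RPKM. For these 4 genes both values stood well below the other 3.

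JAZ4 was at 78.0, 83.8 and 122.6 RPKM against 57.0 and 46.3 RPKM, and JAZ7 at 119.8, 155.2 and 167.9 RPKM against 106.6 and 57.5 RPKM. JAZ9, JAZ11 and JAZ13, whose shoot values are given above, were lowest in the same 2 libraries. JAZ3 was at 26.2, 52.1 and 21.9 RPKM against 44.4 and 20.4 RPKM, higher in both 20 µM libraries than in the rest. The readouts of the 2 libraries were 0.42 and 0.30, and those of the other 3 were 3.37 to 6.41. In roots the summed JAZ level was not ordered by this readout: it was 1137.4, 660.0 and 1233.3 RPKM at readouts of −1.13, −0.87 and −0.80, 1221.1 RPKM at 1.77, and 548.4 RPKM in the untreated library at 2.21. This order was noticed in these values, so no test was made, and with no untreated plants at 6 h, harvest hour and treatment cannot be told apart in them.

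**Figure D3:**
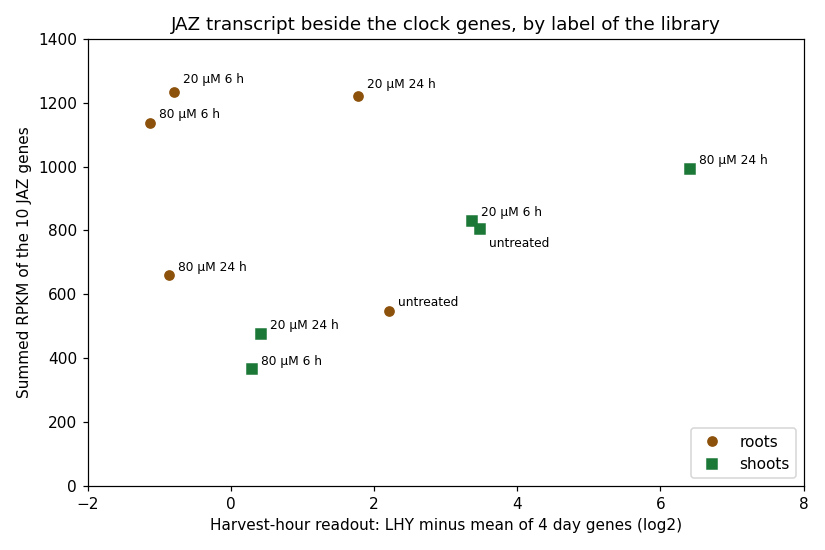
Summed RPKM of the 10 JAZ genes against the log2 harvest-hour readout (LHY minus the mean of 4 day genes) in the 5 root and 5 shoot libraries, each point 1 library named by its label. The 2 shoot libraries with readouts of 0.30 and 0.42 have the lowest sums, 365.0 and 476.3 RPKM, while the root libraries are not ordered by the readout.

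The time comparison in shoots depended on the labels. At 80 µM all 10 JAZ genes were higher at 24 h than at 6 h, 8 of them by at least 2-fold, against 15.2% of all loci (0 lower, 35.6% of loci), with a median log2 difference of 1.43 over the 10 genes and −0.53 over all loci. JAZ9 had the widest gap, 63.9 against 1.7 RPKM. At 20 µM, with labels as given, all 10 were lower at 24 h, 4 of them by at least 2-fold, against 9.49% of all loci (0 higher, 11% of loci). With the 2 times exchanged, those 10 genes were all higher at 24 h, as at 80 µM. Over all loci the median log2 difference at 20 µM was 0.02 with labels as given and −0.02 with the times exchanged. In roots at 20 µM 5 genes were higher and 5 lower at 24 h, and 1 was at least 2-fold lower, JAZ13 (11.2% of all loci), and 0 higher (7.6%). In roots at 80 µM 7 were lower, 4 of them by at least 2-fold (JAZ9, JAZ10, JAZ12 and JAZ13), against 14.7% of all loci, and 0 were 2-fold higher against 25.1%, while over all loci the median log2 difference was 0.28. Over both tissues and doses limma called 0 of 17905 loci for time, and 100 were higher and 250 lower at an unadjusted p under 0.05, none of them a JAZ gene. The median time difference over the JAZ genes was 0.01 with labels as given and 0.45 with the times exchanged. Shares of loci higher or lower at 24 h by any amount were not counted.

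For dose, JAZ3 was the 1 member lower at 80 than at 20 µM in all 4 pairs of tissue and time, as were 12.1% of 17905 loci. No JAZ gene and 2.73% of loci were higher in all 4. These counts are near the shares over all loci and say nothing particular about the JAZ genes. JAZ3 was at 11.7 against 28.0 RPKM and 6.4 against 33.3 RPKM in roots, and at 20.4 against 52.1 RPKM and 21.9 against 44.4 RPKM in shoots, at 6 h and 24 h. The treated shoot values at 20 µM lay above those at 80 µM whichever way their times were assigned. Its log2 difference was −1.43 with an SE of 0.39 (limma over 4 pairs, unadjusted p = 0.00567, adjusted p = 0.437, or 0.218 with the shoot times exchanged), so the call was not made, nor was one made for any other locus (0 of 17905; 383 higher and 1463 lower at an unadjusted p under 0.05). The other 9 genes differed in direction between pairs. In roots at 6 h 7 were lower at 80 µM, 3 by at least 2-fold (JAZ3, JAZ4 and JAZ9; 38.3% of all loci), and 0 were 2-fold higher (15.2%). In roots at 24 h all 10 were lower, 4 by at least 2-fold (those 3 and JAZ10; 25.4% of all loci), and 0 were 2-fold higher (15.7%). In shoots at 6 h all 10 were lower, 6 by at least 2-fold (12% of all loci; 0 higher, 13%), and with the times exchanged 8 were lower, JAZ3 and JAZ9 by at least 2-fold (7.04%; 0 higher, 8.14%). In shoots at 24 h 9 were higher, 7 by at least 2-fold (14.3% of all loci; 0 lower, 31.6%). With the times exchanged 8 were higher, JAZ9 by at least 2-fold (11.3% of all loci), and JAZ3 was at least 2-fold lower (29.6%). Over all loci the median log2 dose difference was −0.56 and −0.27 in roots at 6 h and 24 h. In shoots it was 0.08 and −0.43, or 0.02 and −0.38 with the times exchanged. Shares of loci higher or lower by any amount were not counted for single pairs.

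JAZ11 was the 1 member called different between the tissues in the fit over the 5 conditions. That count is no higher than the share over all loci, so it says nothing particular about the JAZ genes. Its log2 level in shoots was 1.99 lower than in roots with an SE of 0.48 (limma with conditions as blocks, adjusted p = 0.0105, or 0.0112 with the shoot times exchanged), and 1 of 10 JAZ genes was called lower in shoots against 12.4% of 18667 loci, and 0 higher against 16.4%. Treated roots at 177.2 to 337.3 RPKM and treated shoots at 35.5 to 58.4 RPKM did not overlap. How many other loci showed no such overlap was not counted. The untreated pair went the other way, with 72.1 RPKM in roots and 87.3 RPKM in shoots, and without that pair the log2 level in shoots was 2.55 lower (SE 0.38, limma, adjusted p = 0.000366). Without the pair at 80 µM 6 h the call was lost, at 1.68 lower (SE 0.52, limma, adjusted p = 0.0539). The differences of the other 9 genes were not past the threshold. They ran from 1.08 lower in shoots for JAZ9 (SE 0.81, limma, adjusted p = 0.351) to 0.64 higher for JAZ3 (SE 0.38, limma, adjusted p = 0.24).

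The order of the tissues in summed JAZ level changed with condition. Shoots were above roots in untreated plants, at 805.5 against 548.4 RPKM, with 9 of 10 genes higher and 3 of them by at least 2-fold (21.1% of all loci) and 0 lower by as much (20.8%). The median log2 difference over all loci, shoots minus roots, was −0.13 in that pair. Roots were above shoots in the pairs labelled 20 µM 6 h and 24 h, at 1233.3 against 829.6 RPKM and 1221.1 against 476.3 RPKM, with 3 and 6 genes at least 2-fold lower in shoots (24.3% and 23.1% of loci) and 0 higher (26.1% and 27.2%). With the shoot times exchanged these sums were 1233.3 against 476.3 RPKM and 1221.1 against 829.6 RPKM, with 5 and 2 genes at least 2-fold lower in shoots (23.8% and 23.7% of loci) and 0 higher (26.7% and 26.6%). Roots were also above at 80 µM 6 h, at 1137.4 against 365.0 RPKM. In that last pair 6 JAZ genes were at least 2-fold lower in shoots (22.4% of all loci) and 0 higher (48.2%), although over all loci the median log2 difference was 0.89 higher in shoots. Shoots were again above roots at 80 µM 24 h, at 992.2 against 660.0 RPKM, with 9 of 10 genes higher, 4 by at least 2-fold (29.4% of loci), and JAZ11 at least 2-fold lower (37%). There the median log2 difference over all loci, shoots minus roots, was −0.37. Shares of loci higher or lower in shoots by any amount were not counted for these pairs.

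The make-up of the summed level of the 10 genes shifted in roots more than in shoots. JAZ1, given below, is not part of these sums. JAZ9 to JAZ13 supplied 52.8% of the summed level in untreated roots and 64.1% to 78.7% in treated ones. In shoots they supplied 53.7% untreated and 39.8% to 47.8% treated. JAZ11 alone went from 13.1% in untreated roots to 24.2% to 29.7% in treated roots, and from 10.8% in untreated shoots to 5.31% to 9.73% in treated shoots. JAZ7 was the largest component in the 2 shoot libraries at 20 µM, at 18.7% and 22.4%. RPKM can be added across genes only as a level per length, and these shares have no replicate error.

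**Figure D4:**
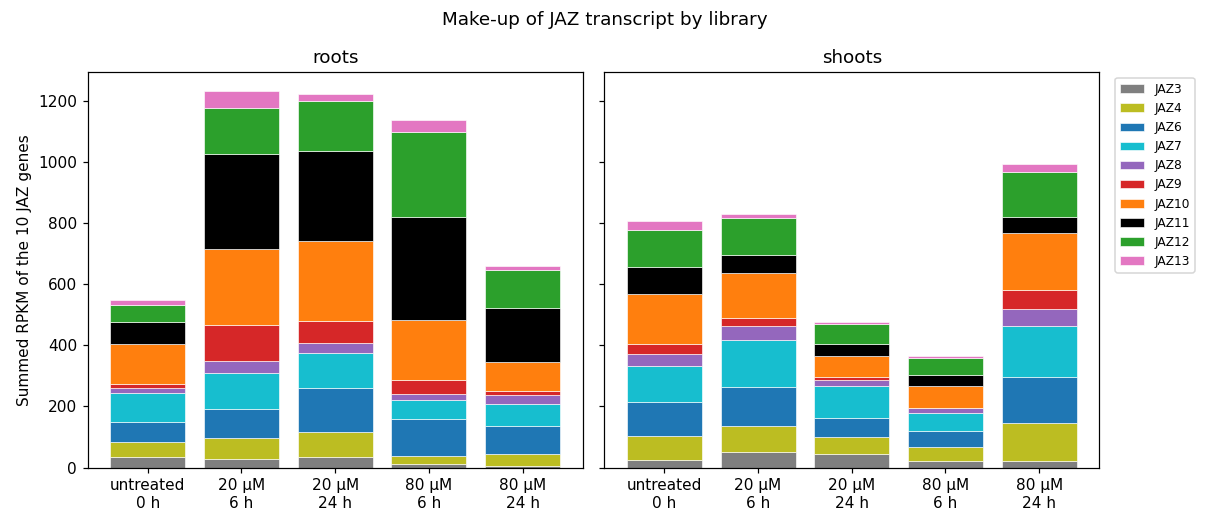
Summed RPKM of the 10 JAZ genes in each library, divided by gene; each bar is 1 library, roots left and shoots right. Treated roots reach 1233.3 RPKM with JAZ10, JAZ11 and JAZ12 as the widest bands, and the shoot bars are lowest at 365.0 and 476.3 RPKM.

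JAZ9, JAZ11 and JAZ10 are adjacent loci on chromosome 3, in that order, and JAZ13 and JAZ12 lie on chromosome 10 with 4 loci between them. Within the chromosome 3 cluster the genes did not all differ in the same direction: from untreated roots to 80 µM 24 h JAZ9 went from 13.6 to 12.4 RPKM and JAZ10 from 130.3 to 95.3 RPKM, while JAZ11 between them went from 72.1 to 177.2 RPKM. How the authors' counting treated reads shared by similar neighbours, and whether it used strand, is not told by the sources used here, so the split within each cluster is uncertain.

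Of 5 further JAZ loci written down from general knowledge, 3 have names listed in the RefSeq table. JAZ1 (LOC_Os04g55920), which acts in spikelet development, was at 63.7 RPKM in untreated roots and 23.0 to 52.9 RPKM in treated roots. It was below untreated roots in all 4 treated libraries, as were 38.1% of all loci. JAZ5 (LOC_Os04g32480) was at 0.7 RPKM in untreated roots, 6.4 and 7.1 RPKM after 6 h under 20 and 80 µM and 3.8 and 2.0 RPKM after 24 h, and between 0.8 and 1.4 RPKM in shoots. JAZ2 did not exceed 2.1 RPKM in any library, and the 2 remaining loci were listed at 0 in all 10.

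Genes that make and perceive jasmonate differed in direction in roots. The 3 receptor genes were all below untreated roots in all 4 treated libraries, as were 38.1% of all loci, and none was 2-fold lower in all 4. COI1a went from 21.8 RPKM to 7.7 and 8.5 RPKM after 6 h and 13.4 and 9.6 RPKM after 24 h in 20 and 80 µM. COI1b went from 45.9 to between 19.6 and 31.8 RPKM. Of the 3, COI1b and COI1a were called higher in shoots than in roots, as were 16.4% of all loci (COI1b log2 difference 1.29, SE 0.40, limma, adjusted p = 0.034; COI1a 1.06, SE 0.36, limma, adjusted p = 0.048). COI2 was not called, at a log2 difference of 0.41 (SE 0.39, limma, adjusted p = 0.473). Of 7 synthesis genes 2 were above untreated roots in all 4 treated libraries, against 16.1% of all loci: AOS2, an allene oxide synthase, by at least 2-fold in each, and JAR1, which couples jasmonate to isoleucine. AOS2 was at 38.4 RPKM untreated, 180.5 and 221.8 RPKM after 6 h under 20 and 80 µM and 100.1 and 87.8 RPKM after 24 h. JAR1 was at 23.1 RPKM untreated, 35.7 and 122.9 RPKM after 6 h and 45.4 and 56.3 RPKM after 24 h. AOS2 and JAR1 were also called lower in shoots, as were 12.4% of all loci (AOS2 1.77 lower on the log2 scale, SE 0.47, limma, adjusted p = 0.0174; JAR1 1.29 lower, SE 0.41, limma, adjusted p = 0.0371). Of 6 genes for JAZ partners and co-repressors, 1 was above and 1 below untreated roots in all 4 (16.1% and 38.1% of all loci). The latter was RSS3, at 19.6 RPKM untreated and 6.8 to 19.3 RPKM treated. The other named synthesis genes (HI-LOX, AOS1, AOC and OPR7) and the partner genes bHLH148 and TPR3 lay on both sides of untreated roots, as did the response and turnover lists of 2 genes each. TPR1, a co-repressor gene, was at 22.4 RPKM untreated, 13.8 to 17.3 RPKM in 3 treated root libraries and 22.4 RPKM at 80 µM 24 h. In shoots HI-LOX, JAR1 and 1 further gene of the 7 for synthesis were above untreated in all 4 treated libraries, as were 6.99% of all loci. In the partner, response and turnover lists (6, 2 and 2 genes), bHLH148 and JAMYB with 2 further genes were below, as were 19% of all loci. None of these was at least 2-fold different in all 4.

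The profile over the 10 libraries most like the mean of the 10 centred JAZ profiles, among 18657 other loci, was that of LOC_Os09g36800 (Pearson r = 0.922, n = 10 libraries of both tissues). It was at 31.3 RPKM in untreated roots, 75.8 and 61.7 RPKM after 6 h and 64.0 and 27.9 RPKM after 24 h, and at 16.5 to 47.0 RPKM in shoots. The next, LOC_Os12g25660 (r = 0.921), did not exceed 14.6 RPKM, and the remaining 3 had r of 0.870 to 0.904. The files pair none of these with a gene name, and r was used only to rank loci.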

How the data were processed

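For each mRNA library the authors deposited RPKM values, so called in the file names and rounded to 1 decimal, over 57624 MSU loci. Per the submitters' processing notes BWA was used; the sources used here name no version, genome build, annotation or counting tool. Differences were computed as log2(RPKM + 1), which understates the change of low genes, over loci reaching 5 RPKM in at least 1 library compared. Fits used limma 3.58.1 in R 4.3.3, its variance prior following mean level, and a Benjamini-Hochberg threshold of 0.05 over all loci, for tissue (5 conditions as blocks), dose and time (blocks of the other 2 factors) and treatment within tissue. With 1 library per group, each error reflects variation of an effect between conditions and no replicate spread. The fits were run on simulated data with independent noise, which checked only that the median estimate lay near the difference put in. Python 3.11.15, pandas 2.3.3 and matplotlib 3.10.9 were used otherwise. RPKM allows no counting intervals.

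The 10 genes and the lists were chosen with earlier results of these data known. Named are all 10 members, listed genes whose name the RefSeq table (ASM3414082v1) gives on the same chromosome (it holds 0 MSU identifiers; all 10 members matched), and loci of most similar profile, of which 2 of the 5 ranked are printed. Alternatives were the pseudocount, the filter, the scaling, exchanged shoot times, left-out libraries or blocks, and a treatment model without dose and time. The 10 microRNA tables were not used here.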

Additional observations from a re-analysis of the deposited data

Results flagged for a closer look

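JAZ11 was flagged because its 4 treated root libraries all lay above untreated roots and its 4 treated shoot libraries all lay below untreated shoots. Taken singly, 16.1% of root loci met the former and 19% of shoot loci the latter. The share of loci meeting both was not counted, so how unusual the flag is remains unknown. The mean log2 difference was 1.90 in roots and −0.92 in shoots, so roots exceeded shoots by 2.83 with an SE of 0.77 (limma, unadjusted p = 0.014, adjusted p = 0.652 over 18667 loci, none of which was called; 709 were higher and 542 lower at an unadjusted p under 0.05). The test of this difference was added after the data had been examined. It used the values that raised the flag, which fixed its direction, so it is no separate evidence for the flag. With dose and time left in the residual its adjusted p was 0.539, and over its 3 alternatives the adjusted p ranged from 0.499 to 0.666.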

How the results depend on the processing

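Replicate number gave no pairing, because each group has 1 library with the same number. Libraries were instead blocked by condition for tissue, by tissue and time for dose, and by tissue and dose for time. The treatment model had no blocks. JAZ11 and JAZ12 were the JAZ genes at least 2-fold higher in all 4 treated root libraries under a pseudocount of 5, no filter and median ratio scaling too; leaving out 1 treated library gave 2 to 3 genes in roots, and 0 to 1 lower in shoots (JAZ13, without 80 µM 24 h). JAZ11 was lower in shoots than roots in every fit, and leaving out 1 condition gave 0 to 1 JAZ genes called lower (0 without 80 µM 6 h, where JAZ11 was −1.68). Median ratio scaling moved the median tissue difference of all loci from 0.07 to 0.21 and the median dose difference from −0.32 to −0.18. Over all loci, the counts past 2-fold in all 4 treated libraries were 718 higher and 1075 lower in roots and 77 and 226 in shoots. They were 417 and 439, and 16 and 120, with a pseudocount of 5, and 1752 lower in roots and 697 lower in shoots without a filter. Leaving out 1 treated library gave 799 to 1018 higher in roots (864 without 80 µM 24 h). It gave 1117 to 1801 lower there (1636 without 20 µM 6 h, 1801 without 20 µM 24 h). In shoots it gave 92 to 244 higher (133 without 20 µM 6 h, 244 without 80 µM 24 h) and 295 to 408 lower (408 without 80 µM 6 h). The treatment tests called 359 loci in roots and 382 in shoots without a filter, 7 and 3 with dose and time in the residual, and 1 for roots minus shoots; none was a JAZ gene. The dose test called 0 to 19 loci when 1 block was left out, 19 without the 24 h shoots. The cause of these moves was not tested. Values rounded to 1 decimal limit the lowest levels, such as JAZ9 at 1.7 RPKM.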
